A study of Mus musculus with 15 samples.

Results

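The 6 liver tumours of this study of Mdr2-knockout mice were split by how much RNA they held from genes of distal chromosome 8. Of the 15 arrays of the series, 3 tumours made up the low group (tumours 3, 5-1 and 6-2) and 3 the normal group (tumours 4, 5-2 and 6-1). The rule took, in each tumour, the median log2 ratio to the mean of the 6 non-tumorous knockout livers over 267 chromosome 8 genes from Ndufb7 to Itgb1, and placed a tumour in the low group where it was below -0.3. All 12 knockout samples came from mice homozygous for the disrupted Mdr2 gene (now Abcb4), and 3 further livers came from heterozygous mice, with every mouse 16 months old. Tumours 5-1 and 5-2 came from 1 mouse and tumours 6-1 and 6-2 from another, so that each of these mice gave a low and a normal tumour, and tumours 3 and 4 came from a mouse each. Non-tumorous tissue of the same 4 mice and of 2 others gave the knockout livers. RNA from frozen tissue was measured as MAS5 signals, intensities on a linear scale, on Affymetrix arrays. The tumours were thus chosen by measured values of these arrays. Genes off chromosome 8 played no part in the split, but they were read on the same arrays, and the comparison below covers 9004 of them.

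Mdr2 is the canalicular pump that passes phosphatidylcholine into bile, and without it bile damages the liver, which becomes inflamed and in old age carries tumours. Hepatocytes differ along the lobule: those around the central vein receive Wnt signals and switch on beta-catenin targets such as Axin2, Glul and Cyp2e1, and many also make bile acids from cholesterol. Sterol synthesis is set by the transcription factor SREBP2, which enters the nucleus when membranes run short of cholesterol. In mice a further layer, the rhythm of growth hormone, gives male and female livers different levels of secreted urinary proteins and steroid enzymes.

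The values that made the split are a description and were not tested. The distal chromosome 8 median was -0.56 in tumour 3, -0.56 in tumour 5-1 and -0.62 in tumour 6-2, a level 1.47-fold to 1.53-fold below the knockout livers. It was 0.053 in tumour 4, -0.00099 in tumour 5-2 and -0.068 in tumour 6-1, while the single knockout livers lay between -0.11 and 0.092. Tumour 3 was the closest member inside the limit and tumour 6-1 the closest outside it, with no tumour between them. In the low tumours 77.5%, 79.8% and 79.0% of the 267 genes lay below the livers, against 44.2%, 50.2% and 57.7% in the normal ones. The other 245 chromosome 8 genes did not divide the tumours in the same way: tumours 3 and 5-1 were at -0.29 and -0.38, but the low tumour 6-2 was at 0.21 and the normal tumour 4 at 0.37. DNA copy number was not analysed here.

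**Figure D1:**
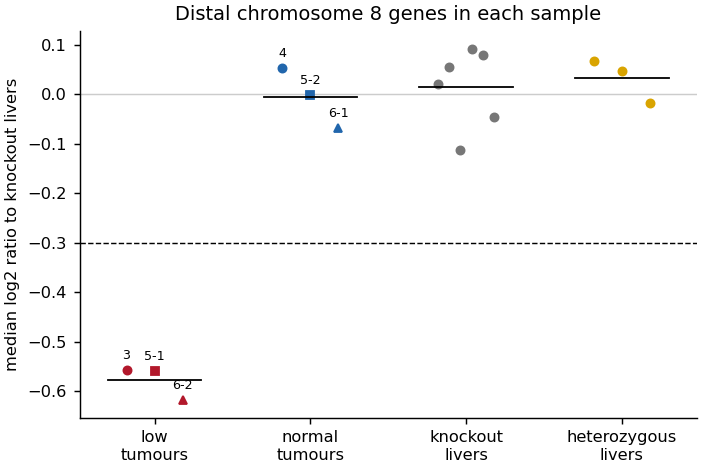
Median log2 ratio of 267 distal chromosome 8 genes to the mean of the knockout livers (vertical axis) in each sample, by group (horizontal axis); lines are group means and the dashed line is the limit of -0.3. The 3 low tumours lie between -0.62 and -0.56, and the 3 normal tumours lie at -0.068 and above, among the livers.

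The arrays were alike in scale but not in make-up. The median signal was 46.3 ± 4.25 (SD, n = 3) in the low and 42.0 ± 5.45 in the normal tumours (exact permutation p = 0.6), from 35.8 in tumour 4 to 51.2 in tumour 5-1. The ratio of 3' to 5' actin signal, a sign of RNA integrity, was 1.69 ± 0.15 in the low and 1.87 ± 0.245 in the normal tumours (exact permutation p = 0.3), and the Gapdh ratio was 0.902 ± 0.1 and 1.03 ± 0.039 (exact permutation p = 0.1, the smallest that 3 against 3 can give). The tissue was liver by its markers, with summed signals of 4 hepatocyte markers of 42782.5 to 49854.1 in the low and 40917 to 50990.7 in the normal tumours. The summed signal of 6 macrophage markers was 3244.9 to 5397.6 in the low and 878 to 3439.2 in the normal tumours, with tumour 4 far below the rest, and that of 5 endothelial markers was 497 to 538.1 and 253.3 to 548.4. Markers of the T cell receptor complex, Cd3d, Cd3e and Cd3g, were not above the 40th percentile of the array in any tumour. Abcb4 itself had signals of 397.1, 122.5 and 200.2 in tumours 3, 5-1 and 6-2 and of 681.1, 237.7 and 173.6 in tumours 4, 5-2 and 6-1, against 778.9 to 1006.4 in the heterozygous livers. Whether its probe set reads the disrupted stretch was not examined here, so these signals do not check the genotype. The tumour groups overlapped, with a log2 difference of -0.49 ± 0.41 (SE, adjusted p = 0.799).

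Few single genes off chromosome 8 separated the tumours beyond the spread that limma pooled over all 15 arrays. That spread includes the 6 knockout and 3 heterozygous livers, so it is not the spread between tumours alone. Hsd3b2, Mup3, C6, Omd and Car8 fell and Guca2a, Celsr1 and Tmem98 rose in the low tumours, 8 genes of 9004 (0.0888%), 3 higher (0.0333%) and 5 lower (0.0555%), at a Benjamini-Hochberg adjusted p under 0.05 in limma. Guca2a is among the 8, but it passed the filter on dim probe sets only through the 3 low tumours, so its call is no support. At an unadjusted p under 0.05, 486 genes were higher (5.4%) and 304 lower (3.38%). All 3 low tumours lay above all 3 normal tumours in 527 genes (5.85%) and below them in 255 (2.83%), and 89 and 61 of these differed at least 2-fold. The median log2 difference over all 9004 genes was 0.06, and -0.05 with each array centred on its median, and medians of gene lists given below shift with it by the same amount. That centring also called 8 genes, 2 higher and 6 lower. With the mouse as a fixed block only Mup3 passed, and with the 6 tumours alone in the fit limma called 0 genes, 340 of them at an unadjusted p under 0.05.

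The 2 falls with the smallest p were of a complement protein and a steroid enzyme. C6, a part of the complement membrane attack complex made by hepatocytes, had signals of 170.8, 141.3 and 452.1 in tumours 3, 5-1 and 6-2 and of 2800.1, 1002 and 2211.4 in tumours 4, 5-2 and 6-1. The lowest normal tumour was above the highest low tumour, and the 6 knockout livers, at 1866.1 to 3038.7, sat with the normal tumours. C6 was 7.97-fold lower in the low tumours (log2 difference -2.99 ± 0.37 SE, n = 3 and 3, adjusted p = 0.00272). Hsd3b2, a hydroxysteroid dehydrogenase of a family with close copies, had 14.9, 5.6 and 32.1 in the low and 595, 110.6 and 589 in the normal tumours. It was above the 40th percentile of the array in 1 of 3 low tumours and in all 3 normal ones, and in the livers it ran from 313.1 to 608.4. Its difference was -3.85 ± 0.50 SE (adjusted p = 0.00272). These were also the steadiest calls, kept in 27 of 29 other settings each, and lost with the 6 tumours alone (adjusted p = 0.598 for both) and with the mouse as a fixed block (adjusted p = 0.254 for C6 and 0.232 for Hsd3b2).

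Mup3, 1 of the major urinary proteins that male liver secretes, showed the widest gap of the called genes. It had 82.6 in tumour 3, 40.4 in tumour 5-1 and 608.8 in tumour 6-2, against 2596.5, 1465.3 and 8461.8 in the normal tumours and 3326.2 to 9762.3 in the knockout livers. The groups did not overlap, and the low tumour was below its partner by -3.78 in mouse 6 and by -4.90 in mouse 5. The log2 difference was -4.50 ± 0.72 SE, 22.6-fold (adjusted p = 0.0207), and -4.60 with the mouse as a fixed block (adjusted p = 0.0266). The call was lost without tumour 3 (adjusted p = 0.0515), without tumour 4 (0.0511) and without the heterozygous livers (0.0581). The probe set can also bind other Mup copies, which the array does not resolve, and a second Mup3 probe set gave -0.70.

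Omd and Car8 fell by less. Omd, osteomodulin, a small proteoglycan of the matrix, had 49, 33.7 and 29.4 in tumours 3, 5-1 and 6-2 and 134.2, 176.5 and 177.8 in tumours 4, 5-2 and 6-1, without overlap. The knockout livers, at 103.6 to 181.8, were like the normal tumours, whereas the heterozygous livers, at 4.9 to 38.8, were like the low ones. Its log2 difference was -1.90 ± 0.34 SE (adjusted p = 0.0428). Car8, a carbonic anhydrase relative without enzyme activity, had 358.3, 183.8 and 199.6 against 905.6, 606.7 and 673.6, a difference of -1.57 ± 0.25 SE (adjusted p = 0.0207). Here the knockout livers, at 374.8 to 550.3, lay between the tumour groups, and the second probe set of Car8 gave -0.34. Without tumour 4 or without tumour 5-1 both calls were lost, Car8 at adjusted p = 0.109 and 0.0534 and Omd at 0.0825 and 0.062, and Omd was also lost without tumour 5-2 (0.0551) and tumour 6-1 (0.0528). Omd stayed past the test in 13 and Car8 in 24 of 29 other settings; Omd was also lost without liver 1, 2, 3, 4 or 6, without heterozygous liver 2 and with no filter on dim probe sets (adjusted p = 0.057, 0.0708, 0.0666, 0.064, 0.0729, 0.0789 and 0.0592). Mup3 and Car8 lie on chromosome 4, whose median log2 ratio was -0.42 in tumour 5-1 and between -0.02 and 0.09 in the other tumours; its part in these differences was not tested.

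The 3 rises included a gut peptide hormone. Guca2a, guanylin, which activates a guanylate cyclase on epithelial cells, had 60.5, 77.7 and 87.7 in tumours 3, 5-1 and 6-2 but only 5.4, 2.4 and 2.2 in tumours 4, 5-2 and 6-1. No normal tumour and no liver had it above the 40th percentile of its array, and the highest liver signal was 19.8. It passed the filter on dim probe sets only through the 3 low tumours, in which it had to be high to be tested at all, so its adjusted p is a description and no support. The log2 difference of 2.76 ± 0.45 SE (adjusted p = 0.0207) also depends on the constant of 9.1 added to each signal: it was 4.20 with a constant of 1 (adjusted p = 0.136) and 1.60 with a constant of 32 (adjusted p = 0.00203). Guca2a also lies on chromosome 4. Its call was lost without tumour 4 (adjusted p = 0.0567) and without tumour 5-1 (0.062).

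Celsr1 and Tmem98 were called in fewer settings. Celsr1, a large cadherin of planar cell polarity, had 130.4, 151.1 and 96.4 in the low and 15.3, 10.2 and 49.9 in the normal tumours, with tumour 6-1 the closest of these (2.14 ± 0.37 SE, adjusted p = 0.039). The knockout livers, at 20.1 to 59.1, overlapped the normal tumours only. Tmem98, a transmembrane protein, had 594.2, 562 and 292.8 against 193.5, 88.7 and 123.3 (1.77 ± 0.32 SE, adjusted p = 0.0461). The knockout livers lay at 109.7 to 231.7 and the heterozygous livers at 45.6 to 63.2. Celsr1 stayed past the test in 11 and Tmem98 in 8 of 29 other settings, with adjusted p up to 0.969 and 0.977. Of the single tumours, leaving out tumour 3, 4, 5-1 or 5-2 ended the call of Celsr1 (adjusted p = 0.0731, 0.152, 0.0736 and 0.0556), and leaving out tumour 3, 5-1, 5-2 or 6-1 that of Tmem98 (adjusted p = 0.101, 0.0822, 0.071 and 0.0528).

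**Figure D2:**
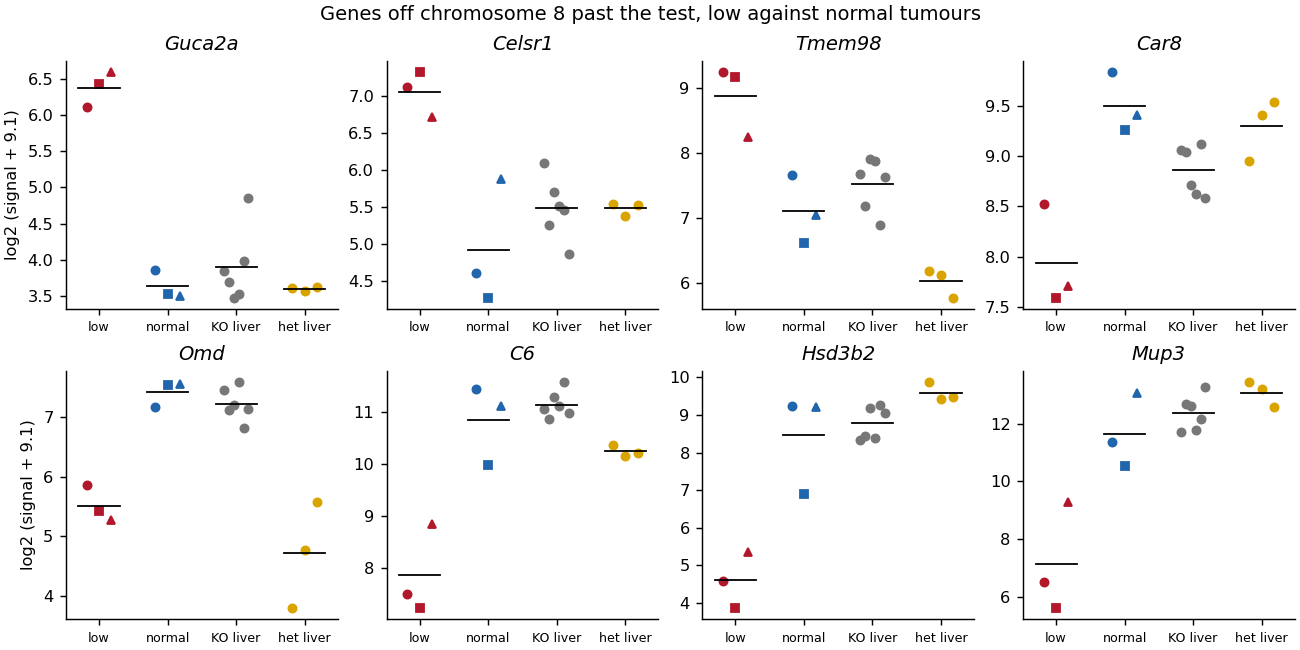
Signal of the 8 called genes as log2 of signal plus 9.1 (vertical axes, each with its own range) in low and normal tumours, knockout (KO) and heterozygous (het) livers; circles in the tumour groups are tumours 3 and 4, squares the tumours of mouse 5, triangles those of mouse 6, and lines are group means. In each panel the 3 low tumours do not overlap the 3 normal tumours, as at 60.5 to 87.7 against 2.2 to 5.4 for Guca2a.

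Beyond these, the genes with the smallest unadjusted p among those at least 2-fold apart and without overlap did not pass the test and are given as values. Since the lack of overlap chose them, it is no result. Among the 12 with higher signals in the low tumours, the acute-phase protein Lcn2, which binds bacterial iron carriers, had 2187.1, 3491.9 and 3012.4 against 199.7, 510.2 and 451.7 (log2 difference 2.95, adjusted p = 0.086). Against the knockout livers, which reached 1681.7, Lcn2 was higher in the low tumours by 2.67 (adjusted p = 0.033). Cav1, the coat protein of caveolae, had 1883.8, 963.5 and 509.9 against 267.3, 328.2 and 210.5 (1.85, adjusted p = 0.0833), and rose by 2.10 over the livers (adjusted p = 0.0096). Laptm4b, a lysosomal membrane protein, differed by 1.03 from the normal tumours (adjusted p = 0.086) and rose by 0.99 over the livers (adjusted p = 0.026). Lbp, which carries bacterial lipopolysaccharide, was at 1151.2 to 1434.8 against 479.3 to 552. Igha, the heavy chain of immunoglobulin A, was at 149.7 to 234.2 against 5.5 to 81.4, with the knockout livers at 91.5 to 230.5. Ctsc, a lysosomal protease, was at 882.6 to 1802.1 against 230.2 to 699.4, with the livers at 328 to 809.8. The remaining 6, with log2 differences of 1.09 to 2.01, were the kinase Pak3, the phosphatase Ppm1m, Sulf2, which trims heparan sulphate, the membrane protein Popdc2, the mitochondrial sulphide oxidase Sqor and the pseudokinase Trib3. Against the knockout livers, Igha, Sqor and Popdc2 differed by 0.36, 0.23 and 0.31 in the low tumours. In the normal tumours they differed by -2.17, -0.86 and -0.95. Pak3 and Ppm1m were at 0.99 and 0.62 in the low and -1.02 and -0.48 in the normal tumours. Lbp, Ctsc, Sulf2 and Trib3 were at 0.84, 0.91, 1.21 and 0.85 in the low and -0.39, -0.64, -0.30 and -0.27 in the normal tumours. None of these differences from the livers passed the test.

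Of the 10 genes filled in on the lower side, 3 make or reshape sterols and 3 are high around the central vein. Cyp51, Idi1 and Tm7sf2 of cholesterol synthesis are described below with their pathway. Axin2, a feedback target of beta-catenin, had 2.3, 13.5 and 11.8 against 81.3, 37.1 and 35.7 (-1.71, adjusted p = 0.081). Cyp7a1, the first enzyme of bile acid synthesis, had 180.3, 204.5 and 412.5 against 6273.8, 471.5 and 1678.5 (-2.74, adjusted p = 0.0833), with tumour 4 above every other array, and Rgn, regucalcin, had 1157.2, 976.5 and 1361.1 against 4813.9, 1513.9 and 4068.1 (-1.42, adjusted p = 0.0833). All of these 3 fell in the low tumours against the knockout livers, with log2 differences of -1.37 for Axin2 (adjusted p = 0.0405), -2.24 for Cyp7a1 (adjusted p = 0.0498) and -1.78 for Rgn (adjusted p = 0.00613). The liver transcription factor Foxa1 had 53.9, 90.3 and 112.1 against 280.2, 176.3 and 283.2 (-1.46, adjusted p = 0.0833) and fell by 1.36 against the livers (adjusted p = 0.026). Fmn2, a formin that nucleates actin, was at -2.02, Hsd3b3, a neighbour of Hsd3b2 in sequence whose probe set can bind related copies, at -1.12, and the mitochondrial nuclease Lactb2 at -1.15.

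Cholesterol synthesis was the list with the largest shift between the tumour groups, and it was unequal between mice. All 17 tested genes off chromosome 8 of 25 listed had lower means in the low tumours, with 0 past the test and 16 lower at an unadjusted p under 0.05, against 3.38% of all genes. In 9 of the 17 the 3 low tumours lay below the 3 normal ones, against 2.83% of all genes, and the median log2 difference was -1.88, against 0.06 for all genes. In mouse 5 all 17 were lower in the low tumour, with a median of -3.89. In mouse 6, 11 were lower and 6 higher, with a median of -0.11. The 3 promoters printed here, from RefSeq on GRCm38.p6, show what upstream letters members with wide gaps share, from the entry of the pathway (Hmgcs1) to the sterol ring (Cyp51). Each is the 250 bases before the start on the gene's strand, with CCAAT boxes (CCAAT or its reverse complement ATTGG, sites of NF-Y, a partner of SREBP2) and the sterol regulatory element TCACNCCAC in capitals.
Hmgcs1, chr13:119690101-119690350, plus strand: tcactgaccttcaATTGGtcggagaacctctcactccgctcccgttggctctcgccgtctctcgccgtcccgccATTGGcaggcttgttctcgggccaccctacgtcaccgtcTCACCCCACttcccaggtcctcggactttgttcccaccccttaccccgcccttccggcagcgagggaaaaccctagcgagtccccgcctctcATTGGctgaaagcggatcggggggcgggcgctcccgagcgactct
Idi1, chr13:8885356-8885605, plus strand: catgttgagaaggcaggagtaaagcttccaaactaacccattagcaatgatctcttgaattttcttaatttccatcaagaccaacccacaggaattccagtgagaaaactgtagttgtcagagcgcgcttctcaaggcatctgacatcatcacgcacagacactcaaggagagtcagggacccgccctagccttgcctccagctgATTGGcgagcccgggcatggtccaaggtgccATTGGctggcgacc
Cyp51, chr5:4104698-4104947, minus strand: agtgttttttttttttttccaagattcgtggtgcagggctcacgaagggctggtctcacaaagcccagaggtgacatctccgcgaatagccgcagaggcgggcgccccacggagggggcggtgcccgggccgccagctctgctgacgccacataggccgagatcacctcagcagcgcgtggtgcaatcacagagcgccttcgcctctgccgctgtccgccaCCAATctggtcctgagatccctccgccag
A CCAAT box was found on either strand in 13 of the 13 list genes with a promoter in the table, against 37.5% of 27025 genes, counting a gene where any of its promoters held it. The element TCACNCCAC was found in 1 of the 13, Hmgcs1, at position -137 from the gene's start, against 1.22% of genes. A match is a string of letters in these windows and was not tested for binding. Only this 1 spelling of the element was searched, so the lack of a match does not show that a promoter lacks a sterol regulatory element.

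Members at successive steps of the pathway had a similar order of tumours. Hmgcs1, the synthase at the entry of the mevalonate pathway, had 2305.6, 423.3 and 3404.7 in tumours 3, 5-1 and 6-2 and 7378.3, 11821.6 and 3672.7 in tumours 4, 5-2 and 6-1 (log2 difference -2.19 ± 0.54 SE, adjusted p = 0.157). Idi1, which makes the isoprene unit used for chain growth, had 343.3, 122 and 885.2 against 1755.1, 6441 and 1004.8 (-2.71, adjusted p = 0.0833). The pattern of both was the same, with tumour 5-1 at the bottom, tumour 5-2 at the top and tumours 6-2 and 6-1 side by side within the range of the livers. Lss, which closes the sterol ring, had 154.2, 62.1 and 169.9 against 566.2, 4943.3 and 284.2 (-2.88, adjusted p = 0.151), and Cyp51, the sterol demethylase, had 136.4, 110.6 and 458.4 against 1268.8, 4710.6 and 483.3 (-2.84, adjusted p = 0.0833). Tm7sf2, a sterol reductase, had 426.8, 174.4 and 470.3 against 1266.7, 2233.4 and 667.4 (-1.89, adjusted p = 0.0607). Sqle, which starts the oxidation of squalene, overlapped: tumour 6-2, at 1271.7, was above tumours 4 and 6-1, at 869 and 609.8. Srebf2, which encodes SREBP2, had 132.1, 130.8 and 159.8 against 142.8, 197.4 and 132.2, a difference of -0.14 (adjusted p = 0.926).

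The list median of each tumour against the knockout livers shows both sides of this gap. It was -0.95, -2.29 and -0.41 in tumours 3, 5-1 and 6-2 and 0.76, 1.63 and -0.33 in tumours 4, 5-2 and 6-1, while single livers lay between -0.41 and 0.44. Tumours 3 and 5-1 were therefore below every liver and tumours 4 and 5-2 above every liver. In mouse 6, tumour 6-1 lay within the liver range and tumour 6-2 at its lower edge. Ebp, a sterol isomerase, was the 1 member that fell in the low tumours against the knockout livers (log2 difference -0.97, adjusted p = 0.019). The list median between the tumour groups went from -1.88 to -1.21 without tumour 5-2 and was between -2.31 and -1.21 in all settings run.

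**Figure D3:**
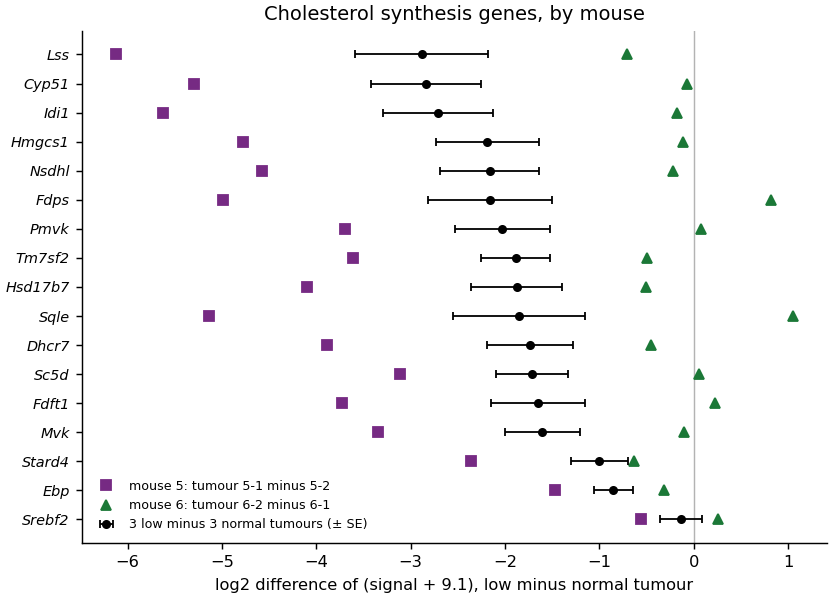
Log2 difference of signal plus 9.1 (horizontal axis) for 17 cholesterol synthesis genes (vertical axis): black points with SE are 3 low minus 3 normal tumours, squares tumour 5-1 minus 5-2 and triangles tumour 6-2 minus 6-1. All squares lie below 0, with a median of -3.89, and the triangles scatter around 0, with a median of -0.11.

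Genes expressed around the central vein and other beta-catenin targets were lower in the low tumours as well. Of 20 tested, 18 had lower and 2 higher means, 0 passed the test, 12 were lower at an unadjusted p under 0.05 (3.38% of all genes) and 6 were lower without overlap (2.83% of all genes). The median log2 difference was -1.42, against 0.06 for all genes. In mouse 5, 18 of 20 were lower in the low tumour (median -0.95), and in mouse 6, 16 of 20 (median -0.28). Cyp2e1, an alcohol-oxidising P450, had 846.4, 812.1 and 5567.2 in the low and 10010.3, 3974.4 and 6728 in the normal tumours, where tumour 6-2 overlapped the normal group (-2.03 ± 0.51 SE, adjusted p = 0.157). Ahr, the dioxin receptor, had 87.5, 150.9 and 116.3 against 726.7, 338.6 and 191.5 (-1.58, adjusted p = 0.107). Glul, glutamine synthetase, had 136, 145.1 and 1298.7 against 1222.2, 857.9 and 512.8, with the order turned in mouse 6 (-1.42, adjusted p = 0.559). Lgr5, a Wnt co-receptor, was high in tumour 4 alone, at 200.3, and between 28.6 and 53.7 in the other tumours.

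Against the knockout livers 5 of the 20 fell in the low tumours, Cyp7a1, Cyp2e1, Axin2, Gulo and Rgn, against 0.544% of all genes. The list median per tumour was -1.77, -2.19 and -0.52 in tumours 3, 5-1 and 6-2 and 1.01, -0.96 and -0.18 in tumours 4, 5-2 and 6-1, with livers at -0.15 to 0.16. Tumour 4 was the only tumour above the livers, and tumour 5-2, of the normal group, was below all of them and below tumour 6-2. Between the tumour groups the median was -0.89 without tumour 5-1, -0.88 with the mouse as a fixed block and -0.86 with every probe set counted by itself. Periportal genes, which mark the other end of the lobule, had a median of 0.25 between the tumour groups, with 9 of 14 higher. Their median against the livers was 0.07, -1.31 and -0.31 in tumours 3, 5-1 and 6-2 and -0.89, -1.08 and -0.17 in tumours 4, 5-2 and 6-1, with tumour 3 inside the livers' range of -0.17 to 0.23 and tumour 6-1 at its edge.

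Genes with male-biased expression in mouse liver were lower in the low tumours. Of 12 tested, 2 fell (C6 and Mup3), against 0.0555% of all genes, 10 had lower and 2 higher means, and the median log2 difference was -1.14. At an unadjusted p under 0.05, 6 were lower, against 3.38% of all genes. Slco1a1, an organic anion carrier, had 189.4, 44.6 and 412.7 against 1336, 324.2 and 1630.1 (-2.45 ± 0.58 SE, adjusted p = 0.126), with the normal tumour 5-2 inside the range of the low ones. Hsd3b5, a steroid enzyme of male liver, was near background in all low tumours, at 2.4, 3.3 and 2.2, and ran from 4.7 to 281.2 in the normal tumours (-2.39 ± 1.07 SE, adjusted p = 0.55). Cyp4a12a, also a male gene, had 3495.5, 2672.1 and 2376.6 against 3026.5, 2679.1 and 2862 (-0.02, adjusted p = 0.992). The list median per tumour was -1.39, -2.66 and -0.92 in tumours 3, 5-1 and 6-2, and 0.19, -1.46 and 0.17 in tumours 4, 5-2 and 6-1. The normal tumour 5-2 lay within the range of the low tumours. The list median was -0.51 without tumour 5-1, -0.74 without tumour 4 and -0.70 with every probe set counted by itself. The 9 genes of the list higher in female liver had a median of 0.04 between the tumour groups. The labels used here do not give the sex of the mice; on all 15 arrays Eif2s3y, a Y-linked gene, was above the 40th percentile of the array, at 51.4 to 142.6, and the brightest Xist probe set was at 13.4 to 52.3, above that percentile on 9 arrays.

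**Figure D4:**
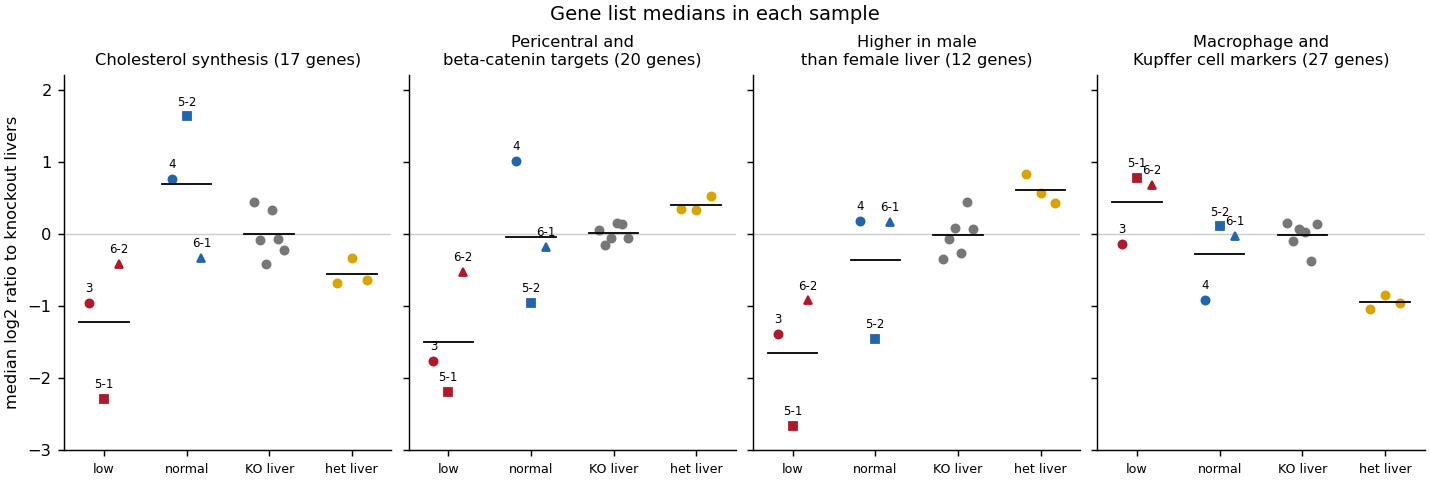
Median log2 ratio to the knockout livers (vertical axis) over the tested genes of 4 lists, in each low and normal tumour, knockout (KO) liver and heterozygous (het) liver (horizontal axis); numbers name the tumours and lines are the means of the plotted points. Cholesterol genes lie at -2.29 to -0.41 in the low and -0.33 to 1.63 in the normal tumours, and macrophage markers at -0.14 to 0.78 and -0.92 to 0.1.

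Bile acid, drug-metabolising and fatty acid synthesis genes also had negative medians, with more weight on single tumours. Of 28 bile acid synthesis and transport genes, 22 had lower means and 8 were lower at an unadjusted p under 0.05 (3.38% of all genes), with a median of -0.44, which was -0.19 without tumour 5-1 and -0.23 without tumour 4. Within mouse 5, 22 of the 28 were lower in the low tumour (median -0.60), and within mouse 6, 14 were lower and 14 higher (median -0.06). Akr1c6, a liver steroid reductase, had 557.8, 2089.6 and 3093.2 against 6642, 4217.9 and 5005.6 (-1.75, adjusted p = 0.116) and fell against the livers (-1.76, adjusted p = 0.0271). The uptake carriers Slco1a4 and Slco1b2 differed by -1.81 (adjusted p = 0.187) and -1.54 (adjusted p = 0.33). Of 29 drug-metabolising P450 and UGT genes, 22 had lower means and 7 were lower at an unadjusted p under 0.05, against 3.38% of all genes (median -0.56, and -0.10 without tumour 5-1). Cyp2d26 went the other way, at 5293.9, 2128.8 and 4977.9 against 1575.8, 899.9 and 3381.4 (1.18, adjusted p = 0.301). Of 22 fatty acid synthesis genes, 17 had lower means (median -0.63), but the mice were opposed: tumour 5-1 was below its partner by a median of -2.0, in 20 of 22 genes, and tumour 6-2 above its partner by 0.49, also in 20 of 22. The list median was -0.07 without tumour 5-1 and -1.41 without tumour 6-2. Fasn, fatty acid synthase, had 2052.8, 442.6 and 4153 against 2046.1, 5450.6 and 2877.3 (-1.02, adjusted p = 0.617). Other fat lists did not have lower medians: it was 0.02 for fatty acid oxidation and ketogenesis, with 15 genes higher and 14 lower, and 0.16 for lipid uptake and droplets, with 13 higher and 5 lower.

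Markers of macrophages had higher group means in the low tumours, though not in each of them. The list median against the livers was -0.14, 0.78 and 0.68 in tumours 3, 5-1 and 6-2 and -0.92, 0.10 and -0.02 in tumours 4, 5-2 and 6-1, so tumour 3 lay below 2 normal tumours and within the livers' range of -0.38 to 0.15. Of 27 tested, 24 had higher means, 10 were higher at an unadjusted p under 0.05 (5.4% of all genes), 4 were higher without overlap (5.85%), and the median log2 difference was 0.65, against 0.06 for all genes; 0 passed the test. Csf1r, the receptor that keeps macrophages alive, had 1465.4, 2477.1 and 1407.1 against 239.2, 812.9 and 1136 (1.49 ± 0.39 SE, adjusted p = 0.187), and C1qa, a complement protein of tissue macrophages, had 440.1, 1065.7 and 1114.9 against 149.8, 473.4 and 562.4 (1.21, adjusted p = 0.33), with tumour 3 below 2 normal tumours. Adgre1, which encodes F4/80, had 159.7, 202.6 and 209.6 against 66.2, 90.2 and 147.6 (0.91, adjusted p = 0.369). Clec4f, a marker of resident Kupffer cells, did not follow: it was at 28.4 in the low tumour 5-1 and at 36.7 in the normal tumour 4, and at 1175.2 in tumour 6-2. The list median was between 0.33 (without tumour 4) and 1.01 (without tumour 6-1) with 1 tumour left out, and in both mice the low tumour was above its partner in 23 of 27 genes. Csf1r lies on chromosome 18, where tumours 3 and 4 both had raised medians. In bulk tissue, more cells of a type and more RNA per cell cannot be told apart.

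Other immune and vessel lists also had positive medians. The 7 MHC class II genes all had higher means, with 0 past the test, a median of 1.00, and 0.18 without tumour 5-1, in which H2-Aa reached 3651.3 against 277.6 to 1444.7 in the other tumours. Of 31 NF-kappaB, chemokine and cytokine genes, 25 had higher means and 6 were higher at an unadjusted p under 0.05, against 5.4% of all genes (median 0.34, and 0.17 without tumour 5-1 to 0.68 without tumour 3); Ubd, a ubiquitin-like protein induced in inflammation, had 743.6, 1332.7 and 1857.5 against 71.5, 953 and 188.3 (2.31, adjusted p = 0.214) and rose by 2.79 over the livers (adjusted p = 0.026). Of 32 interferon-stimulated and MHC class I genes, 28 had higher means (median 0.34, and 0.06 without tumour 4 to 0.57 without tumour 6-1), among them Gbp2, an interferon-induced GTPase, at 77, 210.2 and 78.7 against 28.4, 77.5 and 38.8. Of 28 endothelial markers, 22 had higher means (median 0.47, and 0.15 without tumour 6-1); Flt1, a VEGF receptor, had 46.8, 46.9 and 36.3 against 3.2, 11.9 and 3 (1.84, adjusted p = 0.254). Of 34 proteasome genes 27 had higher means (median 0.23, and 0.14 without tumour 6-1), 5 were higher at an unadjusted p under 0.05 (5.4% of all genes), and 10 were higher without overlap (5.85% of all genes); Psme1, a subunit of the activator cap, had 1577.4, 1420.1 and 1292.3 against 920.4, 803.6 and 1055.4 (0.63, adjusted p = 0.187). Neutrophil markers had a median of 0.35 over 9 genes, which ran from 0.11 (without tumour 4) to 1.65 (stricter filter on dim probe sets) over the settings, and T and NK cell markers of 0.22 over 8, from 0.095 (actin ratio as a covariate) to 0.44 (without tumour 6-1). Within mice the neutrophil median was below 0, at -0.16 in mouse 5 (3 genes higher, 6 lower) and -0.11 in mouse 6 (4 higher, 5 lower). T and NK cell markers were at 0.20 in mouse 5 (6 higher, 2 lower) and -0.32 in mouse 6 (3 higher, 5 lower). The part of these cell type markers in the differences of Lcn2, Cav1, Ctsc and Igha was not tested.

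Hepatocyte, ribosomal and cell cycle lists lay closer to all genes. The median was -0.02 for 26 hepatocyte proteins, -0.04 for 30 S phase and mitosis genes, 0.00 for 34 ribosomal proteins and 0.16 for 44 respiratory chain genes. Single tumours differed more than these medians. Against the livers the respiratory chain median was 0.62 in tumour 3 and -0.63 in tumour 5-1, both of the low group. The low tumour was lower in 40 of 44 respiratory chain genes in mouse 5 (median -0.44) and higher in 36 in mouse 6 (median 0.19). The ribosomal median ran from -0.30 in tumour 3 to 0.41 in tumour 4. Against the livers the S phase and mitosis median was 0.16, 0.74 and 0.15 in tumours 3, 5-1 and 6-2 and 1.24, 0.41 and -0.16 in tumours 4, 5-2 and 6-1, so tumours 5-1, 4 and 5-2 lay above every liver and the other 3 within the livers' range of -0.52 to 0.34. The 39 acute-phase, complement and coagulation genes had a median of 0.12, with 1 fall (C6), while Saa2, serum amyloid A, was at 1242.5 and 1213.6 in tumours 3 and 6-2 but 180.2 in tumour 5-1, against 75.9 to 457 in the normal tumours. F5, coagulation factor V, had 690.8, 1014.3 and 776.2 against 1512, 1295.7 and 1495.3 (-0.80, adjusted p = 0.0833) and fell against the livers (-0.95, adjusted p = 0.00763). Among 22 oncofetal and tumour marker genes the median was 0.45, further from all genes, and it was -0.096 without tumour 5-1 and 0.86 without tumour 5-2. The fetal genes Igf2, Gpc3 and Peg3 were high in tumour 5-1 alone, at 3042.9, 1914.3 and 3406, and no other tumour was above 34, 31.4 and 48.4. The whole list was not confined to that tumour. Its median against the livers was -0.29, 1.31 and 0.29 in tumours 3, 5-1 and 6-2. It was -0.15, 0.50 and -0.17 in tumours 4, 5-2 and 6-1, with livers at -0.39 to 0.16. Its summed signal was 19987.7 in tumour 5-1, 13783.5 in tumour 5-2 and 2562.7 to 7060.6 in the other tumours, with livers at 2041.8 to 3632.3. Cbr3, a carbonyl reductase, had 121.2, 558.3 and 265.5 against 61.1, 51.6 and 65.6 (2.00, adjusted p = 0.196) and rose by 2.07 over the livers (adjusted p = 0.048).

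The low and normal tumours were each set against the same 6 livers, so the 2 sets of values share those arrays. In the low tumours 21 genes rose (0.233%) and 49 fell (0.544%) against the livers, and with each array centred on its median 14 rose and 76 fell. In the normal tumours limma called 0 genes in each direction (0% and 0%), with 677 at an unadjusted p under 0.05; without tumour 6-1 it called 26. Whether the 2 counts differ was not tested, and the direct comparison of the tumour groups is the one above. Both the direct comparison and this one use the 3 low tumours, so their values are only set side by side. Low tumours differed from the livers by -5.22 for Mup3, -4.17 for Hsd3b2, -3.29 for C6, -1.70 for Omd, 2.49 for Guca2a, 1.58 for Celsr1 and 1.35 for Tmem98. The normal tumours differed from the livers by -0.72, -0.32, -0.30, 0.20, -0.27, -0.56 and -0.42 in the same genes, and Car8 by -0.92 in the low (adjusted p = 0.068) and 0.65 in the normal tumours.

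Several genes that fell in the low tumours against the livers were also lower in the normal tumours. The genes named here were picked after their values were seen. The BMP targets Id1, Id2 and Id3, inhibitors of helix-loop-helix factors, fell in the low tumours, with log2 differences of -2.14, -1.54 and -1.82 (adjusted p = 0.019, 0.0136 and 0.00964), and were at -1.79, -0.88 and -1.33 in the normal ones, so the tumour groups differed by -0.35, -0.66 and -0.49 (adjusted p = 0.908, 0.567 and 0.737). Esm1, an endothelial proteoglycan, and Cd36, a fatty acid carrier, rose by 2.14 and 1.94 in the low tumours (adjusted p = 0.0148 and 0.0103), and were at 1.22 and 1.21 in the normal ones. By contrast Akr1c6 and Ebp, at -1.76 and -0.97 in the low tumours, were at -0.01 and -0.12 in the normal ones. The call count of the low tumours against the livers moved with single arrays: it was 188 without tumour 6-2, 107 without tumour 5-2, 33 to 35 without livers 2, 3 or 4, 24 without liver 5, and 42 and 46 without heterozygous livers 2 and 3. It was 3 with the mouse as a fixed block, a fit that also left out the heterozygous livers, and 19 with only those livers left out.

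Other chromosomes differed between single tumours more than between the tumour groups. Over 19 chromosomes, the exact permutation p for low against normal tumours was at least 0.1, the smallest that 3 against 3 can give, and at least 0.633 after adjustment, so this design could not have called one. The groups did not overlap on chromosomes 1, 12 and X, with differences of means of -0.057, -0.17 and -0.11. On X they nearly touched, with tumour 5-1 at -0.0123 and tumour 6-1 at -0.0120. Over the settings run, the difference lay between -0.082 and 0.061 on chromosome 1 and between -0.192 and 0.011 on X. On chromosome 12 it lay between -0.195 and -0.049. The median log2 ratio of chromosome 18 was 0.66 in tumour 3 and 0.48 in tumour 4, 1 tumour of each group, and between -0.21 and -0.05 in the others. Chromosome 4 was at -0.42 and chromosome 12 at -0.32 in tumour 5-1 alone, chromosome 16 at 0.34 in tumour 4 alone, and chromosome 15, which holds C6, Celsr1 and Laptm4b, at 0.20 in tumour 6-2. The single livers lay within -0.11 and 0.09 on all 19. Of windows of 41 neighbouring genes off chromosome 8, 2356 had medians beyond 0.3 in either direction over the 6 tumours and 13 over the 6 livers, all 13 in liver 6 on chromosome 19. Neighbouring windows share all but 1 of their genes, so 1 stretch is counted many times. Tumour 5-1 on chromosome 4 gave 423 of 538 windows, the most, and tumour 4 on chromosome 16 gave 186 of 276. Each liver is also part of the mean it was set against, and the tumours are not.

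**Figure D5:**
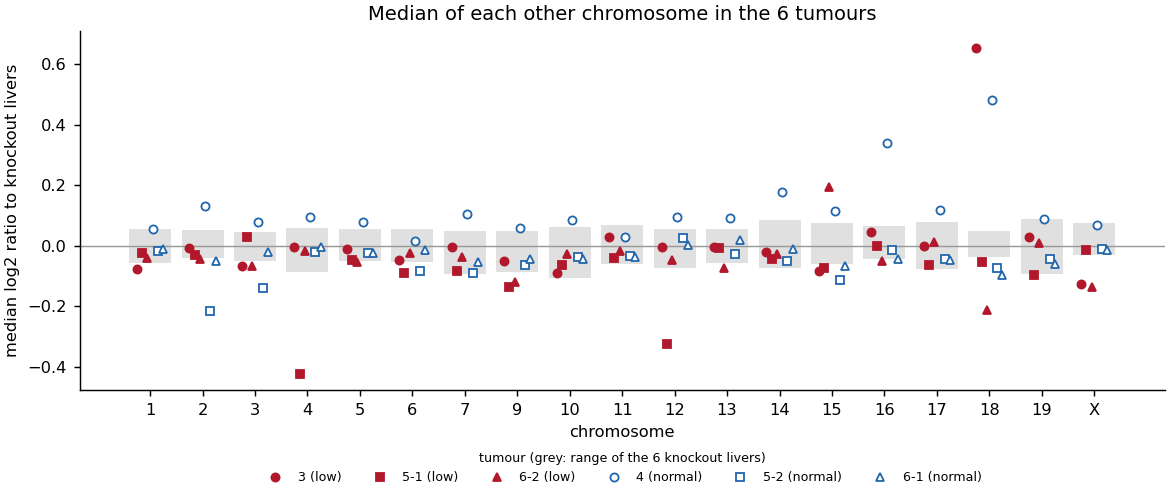
Median log2 ratio to the knockout livers (vertical axis) of the tested genes of each chromosome other than 8 (horizontal axis), for 3 low (filled) and 3 normal (open) tumours, with the range of the 6 livers in grey. Tumours 3 and 4, of different groups, share the high chromosome 18, at 0.66 and 0.48, and tumour 5-1 is low on chromosomes 4 and 12.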

How the data were processed

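RNA of 15 liver samples was measured on Affymetrix arrays. The authors' deposited values are signals of intensity per probe set on a linear scale, made with MAS5 per the submitters' processing notes; its version is not given in the sources used here. Of 22690 probe sets, 64 controls were left out; in the probe annotation 20393 had 1 gene, 691 several and 1606 none. Signals were taken as log2 of signal plus 9.1 (20th percentile over the arrays). Probe sets above the 40th percentile of the array in at least 3 arrays were kept (16120), each gene was represented by its brightest probe set (9528 genes), and genes were placed by RefSeq GRCm38.p6, with 9004 off chromosome 8 and 12 unplaced.

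All 15 arrays were fitted in 4 groups with limma 3.58.1 (statmod 1.5.0, R 4.3.3), lmFit and eBayes with a trend, with Benjamini-Hochberg adjustment over genes off chromosome 8. The fit was tested on simulated data with independent arrays, the same spread in tumours and livers, and no shared mice. That test therefore does not check a wider spread in tumours or the pairing by mouse. The labels pair samples by mouse; after group means were removed, samples of 1 mouse correlated between -0.151 and 0.202 (median 0.047, 8 pairs), and samples of different mice between -0.150 and 0.148 (median -0.018, 37 pairs). These were pairs of samples from different groups. Tumours 5-1 and 5-2 correlated at 0.202 and tumours 6-1 and 6-2 at 0.125. Low and normal tumours of different mice lay between -0.150 and 0.148, with only tumours 3 and 4 above 0. The fixed block on mouse was an alternative, fitted without the heterozygous livers and with a term for each mouse. Tumours of 1 mouse are not independent animals, p-values measure only the spread between these samples, and the number of arrays limits the precision. The split into tumour groups comes from these arrays, not from the labels.

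Named genes were, off chromosome 8 and leaving out clone names, up to 15 genes in each direction that passed the test without overlap, filled by unadjusted p with genes at least 2-fold apart, without overlap and above the 40th percentile; then Abcb4 and, of each of 44 gene lists, up to 2 called members in each direction or the member with the smallest p. Other members named as examples, and genes named against the livers, were picked after their values were seen. The members and lists were chosen with earlier results of these data known.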

Additional observations from a re-analysis of the deposited data

Results flagged for a closer look

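Values that stood apart within a group of 6 samples are given here with no explanation; 4 of 128 gene and group combinations examined did so by Dixon's test, and chance gives about 1 in 20. Guca2a was at 19.8 in knockout liver 6 and between 2 and 6.7 in the other 5 knockout livers. Laptm4b was at 435 in the same liver and between 351.6 and 372.8 in the others. Cav1 was at 107.6 in knockout liver 5 and between 210.2 and 308.2 in the others. Igfals, the carrier of insulin-like growth factors in blood, was at 16.7 in tumour 4 and between 104.5 and 245.8 in the other 5 tumours.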

How the results depend on the processing

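The count of 8 genes between low and normal tumours was 4 with a constant of 1, 5 with no filter on dim probe sets, 5 with every probe set tested by itself, 4 without the heterozygous livers, 0 with the 6 tumours alone in limma (340 at an unadjusted p under 0.05), 1 with the mouse as a fixed replicate block, and 26 when adjusted over all genes with chromosome 8 included; leaving out 1 array gave 4 (without tumour 4) to 73 (without tumour 6-2), with 38 without tumour 6-1, 19 without 5-2 and 13 without 3. The count of 70 genes between low tumours and livers was 19 without the heterozygous livers, 3 with the replicate block, 21 with the actin ratio as a covariate and 36 without a trend, and leaving out 1 array gave 24 to 188. The count of 0 between normal tumours and livers in limma (677 at an unadjusted p under 0.05) was 1 with the actin covariate, 0 to 26 leaving out 1 array, and 0 with the replicate block. The log2 difference of Abcb4, -0.49, was -0.922 without tumour 3 and turned to 0.0749 without tumour 4. The cause of these changes was not tested. The fit with the replicate block also left out the heterozygous livers. Of the 8 genes, 8 stayed called with a constant of 32 or quantile normalization, 7 with the actin covariate and 5 with no filter. Guca2a is counted in these numbers, though its call is no support. Without tumour 4 or tumour 5-1, 3 stayed called. All 8 also stayed under the wider adjustment, which is no support. The directions of the 8 genes were the same in every setting run, which is no support. Their tumour groups did not overlap, so leaving out 1 tumour could not turn a direction, and leaving out a liver leaves the difference unchanged. Guca2a had no value under the stricter filter. The number of arrays, with 3 tumours on each side, limits the precision, and so does the dimness of Guca2a, Hsd3b2 and Axin2 in 1 of the groups.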
